A study of Mus musculus with 12 samples.

Results

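The 10 genes of the MHC class II pathway described here were followed through 12 mouse tumors by bulk RNA-sequencing. The members were chosen by symbol: the classical chains H2-Aa, H2-Ab1 and H2-Eb1, the invariant chain Cd74, the transactivator Ciita, the peptide editors H2-DMa, H2-DMb1 and H2-DMb2, and the editor's modulators H2-Oa and H2-Ob. All 10 were found among the 34678 gene symbols of the files. The tumors grew in C57BL/6 mice aged 5 to 8 weeks after injection of LLC1-shLkb1 cells. This is a Lewis lung carcinoma line in which Lkb1 (Stk11) was knocked down, and the tumors of every arm carried that knockdown. The paper describes such tumors both under the skin and in the left chest, and its methods do not say which were sequenced. Starting 7 days after injection, the mice received vehicle (control IgG), palbociclib (an inhibitor of the cell cycle kinases CDK4 and CDK6, 100 mg/kg by mouth on 3 days of each week), anti-PD-1 (clone RMP1-14, 200 µg per mouse 3 times a week) or their combination, and tumors were collected 2 weeks after treatment. Each arm had 3 tumors, and no arm without the knockdown was analysed here. The labels do not tie the tumors to separate mice, so the p-values below measure the spread between these samples.

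MHC class II molecules are pairs of an alpha and a beta chain that carry peptides from ingested proteins to the surface, where CD4+ T cells read them. Dendritic cells, macrophages and B cells make them constitutively or on activation, and most other cells make them only after exposure to interferon gamma, which switches on Ciita. CIITA binds no DNA itself but docks on the RFX and NF-Y complexes that sit on the X and Y boxes of class II promoters. The invariant chain fills the binding groove during assembly, cathepsin S trims it, and H2-DM then exchanges the last fragment for peptide while H2-O restrains H2-DM. Mice of the C57BL/6 background express I-A, the product of H2-Aa and H2-Ab1, but lack a working alpha chain for the beta chain encoded by H2-Eb1.

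Of the 10 members, 8 lie in a stretch of chromosome 17 (GRCm38, with GENCODE M21 positions). The cluster runs from H2-Oa (chr17:34092340-34095234, plus strand) through H2-DMa, H2-DMb2, H2-DMb1, H2-Ob, H2-Ab1 and H2-Aa to H2-Eb1 (chr17:34305867-34316674, plus strand). Ciita lies on chromosome 16 (chr16:10480059-10528418, plus strand). The stretches below are 70 bases of RefSeq promoter sequence (GRCm38.p6), shown because they carry the elements on which CIITA's partners sit. Capitals mark TGATTGG, which holds the Y box core ATTGG, and AGCAAC, the X1 box core, where present. The H2-DMb2 stretch precedes the RefSeq start and lies inside the longer GENCODE gene, which begins at 34143307. No window was given for H2-Ab1, Cd74 and Ciita.
H2-Aa, chr17:34287862-34287931, minus strand: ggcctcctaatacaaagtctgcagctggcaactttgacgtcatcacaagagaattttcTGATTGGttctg
H2-Eb1, chr17:34305748-34305817, plus strand: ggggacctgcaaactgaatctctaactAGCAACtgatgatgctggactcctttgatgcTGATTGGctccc
H2-DMb2, chr17:34145099-34145168, plus strand: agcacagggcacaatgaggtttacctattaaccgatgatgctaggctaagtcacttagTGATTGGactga
H2-Oa, chr17:34092276-34092345, plus strand: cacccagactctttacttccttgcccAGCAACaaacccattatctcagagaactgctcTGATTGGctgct
H2-Ob, chr17:34238788-34238857, plus strand: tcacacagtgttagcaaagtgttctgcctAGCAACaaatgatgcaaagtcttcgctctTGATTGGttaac

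Within windows of 250 bases before to 50 bases after each start, searched on both strands, ATTGG was present in 7 of the 8 windows of 7 members, against 37.4% of all 32851 windows. AGCAAC stood 20 to 60 bases before ATTGG on 1 strand in 3 of the 8, those of H2-Eb1, H2-Oa and H2-Ob, against 0.621% of all windows. The distance from the first base of AGCAAC to that of ATTGG was 33 bases in H2-Eb1, 34 in H2-Oa and 31 in H2-Ob. The longer TGATTGG, chosen after the sequences were seen and containing the ATTGG match, was present in 6 of the 8 member windows against 7.82% of all windows. These letter matches describe the sequence only. The members with both exact matches included the highest of the classical chains, H2-Eb1, and the lowest-expressed members, H2-Oa and H2-Ob. Near matches, such as ggcaac in the H2-Aa stretch, were not counted, so a window without AGCAAC may still hold an X box.

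Values were deposited as FPKM, fragments scaled by gene length and by library size, so that levels can be compared between genes, and each tumor gave an estimated 14900000 to 20300000 fragments. In each arm 1 tumor stood apart in the mean log2 level of H2-Aa, H2-Ab1, H2-Eb1 and Cd74, high in vehicle replicate 1 (6.05) and anti-PD-1 replicate 1 (3.96) and low in palbociclib replicate 1 (5.29) and combination replicate 2 (4.16), and genes of surrounding tissue were high in some tumors. The summed FPKM of 5 skeletal muscle genes was 51.1 in vehicle replicate 1, 147.2 in palbociclib replicate 3 and 143.1 in combination replicate 2, against at most 9.73 in the other tumors. The 5 adipose genes summed to 374.5 in palbociclib replicate 1 and 919.6 in combination replicate 1, against at most 34.9 elsewhere, and 5 skin genes summed to 359.7 in palbociclib replicate 2 against at most 0.91 elsewhere. The epithelial keratin gene Krt8 was read at 62.0 to 276.3 FPKM, whereas Krt18, Krt19 and Epcam stayed at or below 5.08. Stk11 was read at 7.90 to 11.5 FPKM, which checks no label because every arm carried the knockdown.

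The classical chains and the invariant chain reached the highest levels of the members and spanned the widest range. H2-Aa, the alpha chain of I-A, was read at 48.5, 7.16 and 3.41 FPKM in vehicle replicates 1 to 3 and at 27.8, 80.9 and 76.8 in the palbociclib tumors. With anti-PD-1 it was read at 9.60, 3.32 and 2.99 FPKM, and with the combination at 164.0, 13.1 and 106.6. The palbociclib tumors lay above 2 of the 3 vehicle tumors, vehicle replicate 1 lay inside their range, and every combination tumor lay above every anti-PD-1 tumor. H2-Ab1, its beta chain partner, followed at 46.1, 6.47 and 3.75 FPKM with vehicle and 27.0, 79.8 and 83.5 with palbociclib. It was read at 11.9, 3.18 and 4.31 FPKM with anti-PD-1 and at 140.4, 12.1 and 100.7 with the combination. The order of the arms was that of H2-Aa, with combination replicate 2 again just above the highest anti-PD-1 tumor.

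H2-Eb1 was transcribed at the highest level of the chains although its alpha chain partner is not made in this strain. It was read at 77.9, 10.1 and 4.58 FPKM with vehicle, 51.6, 155.5 and 168.8 with palbociclib, 17.0, 6.83 and 6.15 with anti-PD-1, and 301.1, 19.3 and 204.6 with the combination. H2-Ea-ps, the broken alpha chain gene, was listed at 0 in all 12 tumors, and H2-Eb2, a further beta chain gene, did not exceed 0.273 FPKM. Cd74, the invariant chain gene on chromosome 18, was read at 110.0, 15.1 and 8.86 FPKM with vehicle and at 60.1, 194.9 and 194.0 with palbociclib. It was read at 29.5, 9.64 and 9.92 FPKM with anti-PD-1 and at 296.2, 32.2 and 289.0 with the combination. The invariant chain thus had the same 3 low tumors with anti-PD-1, the same high vehicle replicate 1 and the same low combination replicate 2.

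These 4 genes kept nearly fixed proportions while their levels spanned 33.4-fold (Cd74) to 65.7-fold (H2-Eb1) between the lowest and the highest tumor. The ratio of H2-Aa to H2-Ab1 FPKM ran from 0.694 to 1.17 over the 12 tumors, with a median of 1.04. The ratio of Cd74 to H2-Ab1 ran from 2.11 to 3.03, and that of H2-Eb1 to H2-Ab1 from 1.22 to 2.15. The tumors differed far more in the common level of the 4 genes than in the balance among them.

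**Figure D1:**
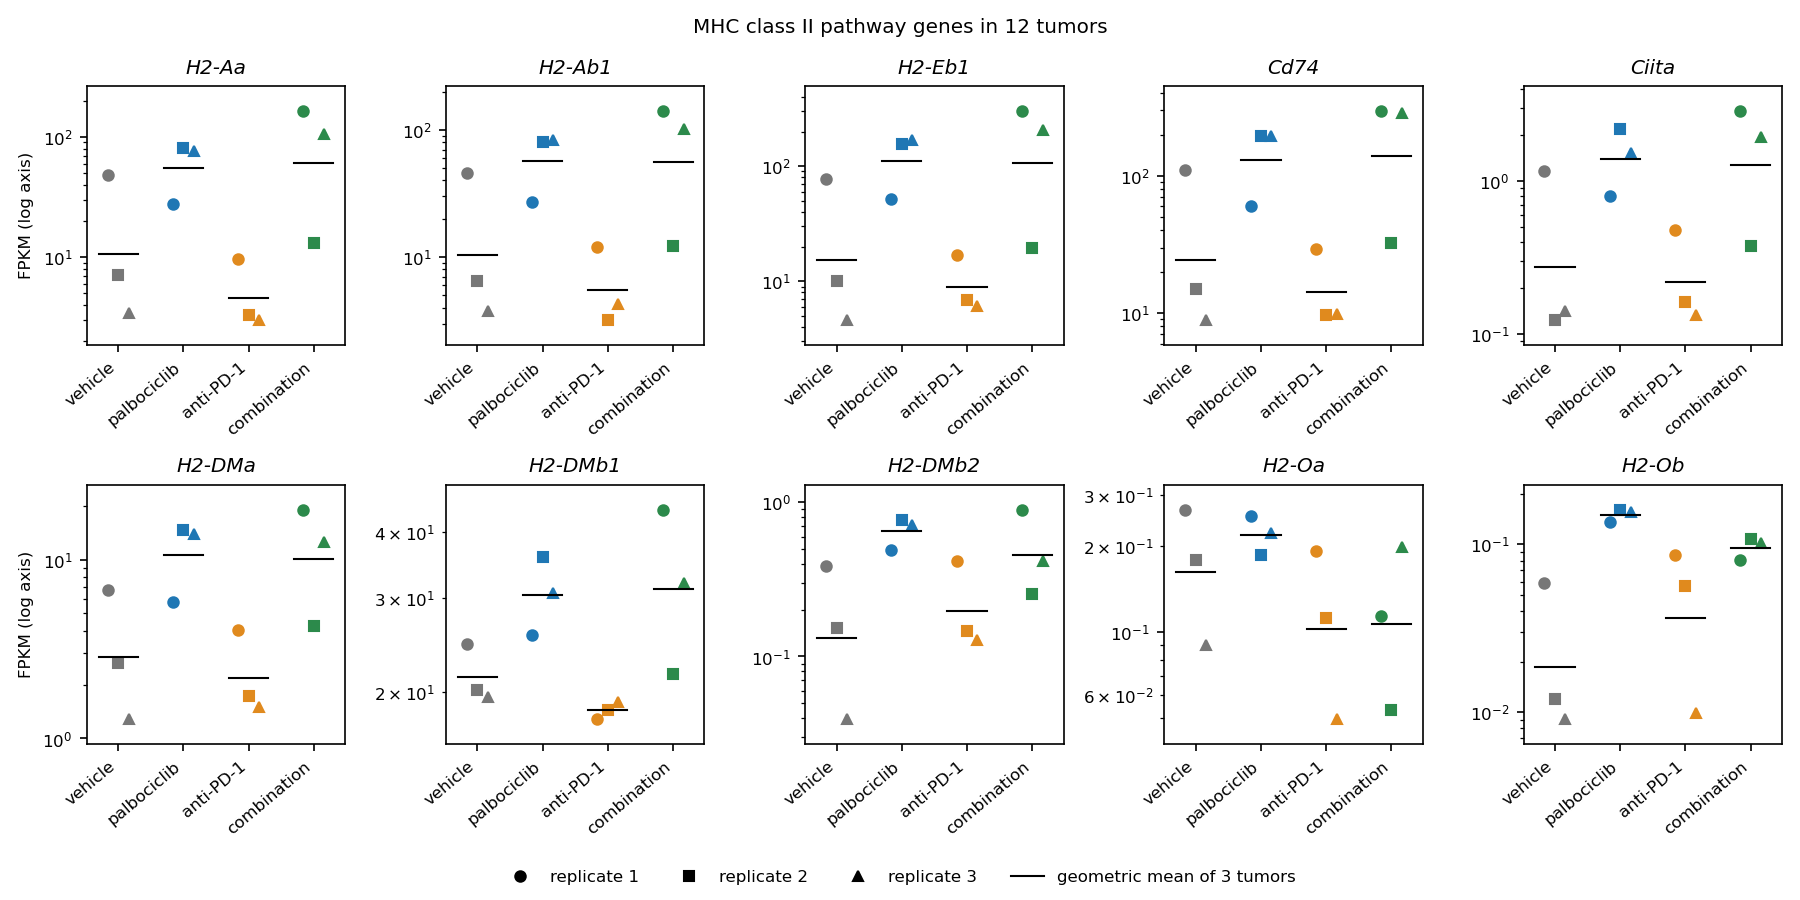
FPKM (log axes that differ between panels) of the 10 pathway genes in each of 12 tumors, by arm, with marker shape for the replicate and a line at the geometric mean of 3 tumors. In 8 of the 10 panels combination replicate 1 is the highest tumor, and in 9 combination replicate 2 is the lowest of the 6 tumors given palbociclib.

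Ciita, the transactivator, was read at far lower levels. It was 1.16, 0.123 and 0.141 FPKM with vehicle and 0.798, 2.18 and 1.53 with palbociclib. It was 0.477, 0.163 and 0.134 FPKM with anti-PD-1 and 2.85, 0.377 and 1.93 with the combination. Here combination replicate 2 lay below anti-PD-1 replicate 1, so these arms overlapped. Over the 12 tumors the ratio of Ciita to H2-Ab1 ran from 0.0183 to 0.0514. About 3.45% of Ciita exon bases overlap Dexi on the opposite strand, and the sources used here do not say whether counting used strand.

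H2-DMa, the alpha chain of the peptide editor, showed a narrower range than the classical chains. It was read at 6.80, 2.65 and 1.28 FPKM with vehicle, 5.82, 14.6 and 13.9 with palbociclib, 4.05, 1.72 and 1.49 with anti-PD-1, and 18.9, 4.28 and 12.5 with the combination. Combination and anti-PD-1 tumors did not overlap, whereas vehicle replicate 1 exceeded palbociclib replicate 1. The ratio of H2-DMa to H2-Ab1 was 0.125 to 0.355 in the combination and 0.341 to 0.543 with anti-PD-1. Of the exon bases of H2-DMa, 10.4% overlap Brd2 on the opposite strand.

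H2-DMb1, a beta chain of the editor, had the narrowest range of the 10 members. It was read at 24.6, 20.2 and 19.6 FPKM with vehicle, 25.6, 35.9 and 30.7 with palbociclib, 17.8, 18.5 and 19.2 with anti-PD-1, and 43.9, 21.6 and 32.1 with the combination. Its highest tumor exceeded its lowest by 2.46-fold, against 14.8-fold for H2-DMa, and the ratio of H2-DMb1 to H2-DMa ran from 2.21 in palbociclib replicate 3 to 15.4 in vehicle replicate 3. Every palbociclib tumor lay above every vehicle tumor, and every combination tumor above every anti-PD-1 tumor. H2-DMb2, the neighbouring paralog, was read at 0.384, 0.154 and 0.0391 FPKM with vehicle, 0.489, 0.773 and 0.718 with palbociclib, 0.414, 0.146 and 0.128 with anti-PD-1, and 0.891, 0.254 and 0.416 with the combination. The palbociclib and vehicle tumors did not overlap for H2-DMb2. The transcripts of these paralogs are 87.3% identical with an identical run of 221 bases, so reads could be divided between them, and the values of H2-DMb2, an estimated 137 fragments over all 12 tumors, are uncertain.

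The modulators of the editor were barely read. H2-Oa was 0.266, 0.178 and 0.0903 FPKM with vehicle, 0.254, 0.185 and 0.221 with palbociclib, 0.191, 0.112 and 0.0495 with anti-PD-1, and 0.114, 0.0534 and 0.198 with the combination. All 4 arms overlapped, and an antisense gene covers 22.8% of its exon bases. H2-Ob was 0.0592, 0.0119 and 0.00905 FPKM with vehicle, 0.136, 0.160 and 0.155 with palbociclib, 0.0863, 0.0562 and 0.00990 with anti-PD-1, and 0.0802, 0.107 and 0.102 with the combination. The palbociclib tumors lay above every vehicle tumor, while combination and anti-PD-1 overlapped. The estimated fragments over all 12 tumors were 44 for H2-Oa and 86 for H2-Ob, which limits what these values can show.

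To compare tumors with and without palbociclib at either level of anti-PD-1, the mean of the differences palbociclib minus vehicle and combination minus anti-PD-1 was tested. This palbociclib effect was fitted by limma on log2(FPKM + 0.1) over the 15350 genes whose FPKM averaged 0.1 or more, and an adjusted p (Benjamini-Hochberg) under 0.05 was the threshold. In all, 9 members entered the test, and H2-Ob, with a mean FPKM of 0.0811, did not. No member passed, where 0.313% of all genes tested did. The estimate was above 0 for all 9, with a median of 2.0 against 0.055 over all genes tested. Of the 9, 8 had an unadjusted p under 0.05 and a positive estimate, against 14.1% of all genes tested. H2-DMb1 was the 1 member whose tumors with palbociclib lay above those without it at both levels of anti-PD-1, as did 1.95% of all genes tested.

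The classical chains and the invariant chain had the highest estimates. H2-Eb1 had a log2 palbociclib effect of 3.20 (SE 0.80, n = 3 tumors an arm), or 9.16-fold, with a limma adjusted p of 0.0885. H2-Aa had 3.04 (SE 0.75), H2-Ab1 2.87 (SE 0.74) and Cd74 2.86 (SE 0.73), and their limma adjusted p values lay between 0.0884 and 0.0950. H2-DMa had 2.0 (SE 0.47, limma adjusted p 0.0836) and Ciita 1.99 (SE 0.55, limma adjusted p 0.110). The estimate was 1.21 (SE 0.36) for H2-DMb2 and 0.63 (SE 0.15) for H2-DMb1, with limma adjusted p of 0.124 and 0.0876. H2-Oa had 0.14 (SE 0.26), with a 95% interval of -0.44 to 0.72. The editor chain H2-DMb1 therefore had the smallest estimate of the 8, and also the smallest standard error.

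Each member was also tested alone by a two-sided exact permutation test over 400 relabelings of the tumors within each anti-PD-1 level, for which the smallest possible p is 0.005. Of the 10 members, 9 had an exact p under 0.05, not adjusted for the 10 tests. They were H2-Ob and 8 of the 9 members that passed the filter on low values, all with positive estimates, against 12.4% of all 15350 genes with such a p and a positive estimate. The exact p was 0.005 for H2-DMb1, the smallest possible, and 0.01 for H2-Ob. It was 0.015 for H2-Aa, H2-Ab1, H2-Eb1, Cd74, H2-DMa and H2-DMb2, 0.02 for Ciita and 0.555 for H2-Oa in the same exact permutation test. The members were read in the same tumors and moved together, so these are not 10 separate pieces of evidence.

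**Figure D2:**
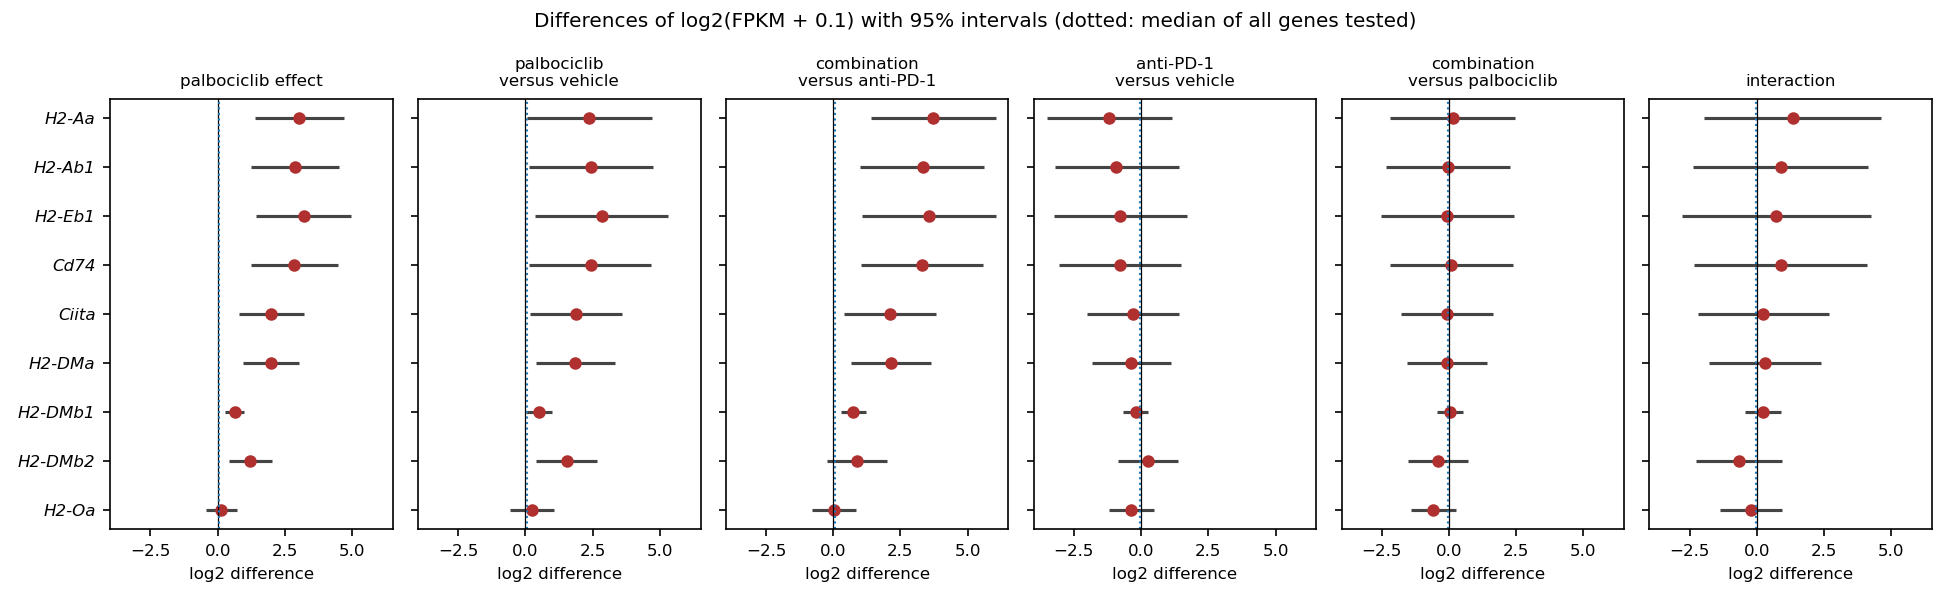
Differences of log2(FPKM + 0.1) with 95% intervals for the 9 members tested, in the palbociclib effect, 4 comparisons between arms and the interaction, with a dotted line at the median of all genes tested. In the palbociclib effect 8 members have intervals above 0, and every interval in the panels for anti-PD-1 versus vehicle, combination versus palbociclib and the interaction crosses 0.

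In bulk tumors, fewer class II-bearing cells and less class II RNA per cell cannot be told apart. Whether members passed turned on 3 tumors. Without vehicle replicate 1, 8 of the 9 members passed (all but H2-Oa) with 4.51% of all genes tested, and the estimate of H2-Eb1 became 3.78. Without combination replicate 2, 7 passed (all but H2-DMb2 and H2-Oa) with 1.72% of all genes, with H2-Eb1 at 3.81. Without anti-PD-1 replicate 1, H2-Aa and H2-DMa passed with 4.94% of all genes, at 3.31 and 2.21. No member passed in the 9 fits that left out another tumor. These 3 tumors and palbociclib replicate 3 had the 4 highest sums of skeletal muscle genes (9.73 to 147.2 FPKM), whose part in the result was not tested.

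**Figure D3:**
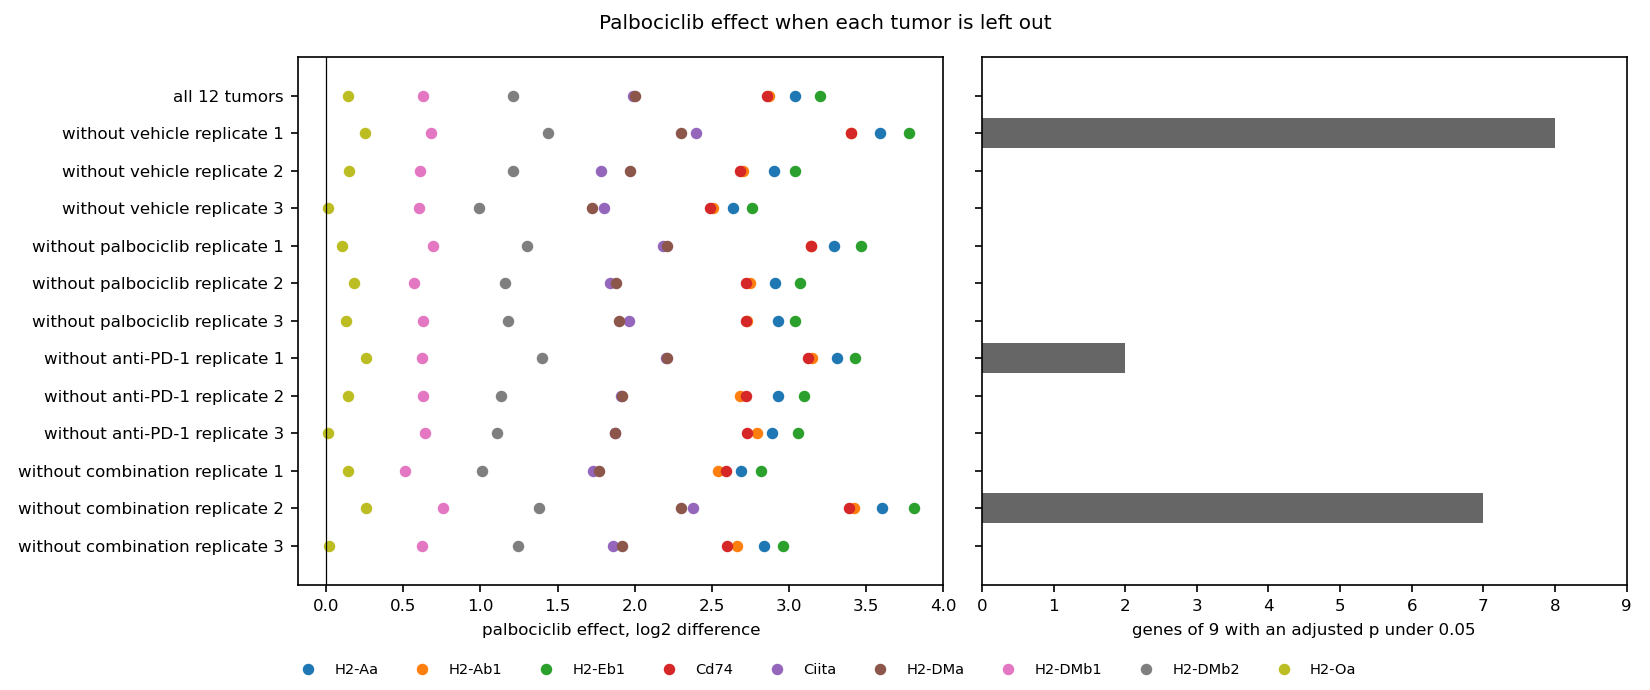
Left, the log2 palbociclib effect of each of 9 members with all 12 tumors and after leaving out each tumor. Right, the number of these members with an adjusted p under 0.05, which is 8 without vehicle replicate 1, 7 without combination replicate 2, 2 without anti-PD-1 replicate 1 and 0 in the other fits.

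The arms were then compared pair by pair, and comparisons with a common arm share its tumors. Palbociclib alone against vehicle gave a log2 difference of 2.84 (SE 1.13) for H2-Eb1, 2.38 (SE 1.06) for H2-Aa and 1.85 (SE 0.67) for H2-DMa. No member passed in limma (adjusted p from 0.284 to 0.768), where 0.143% of all genes tested did, and the median over the 9 members was 1.87 against 0.068 over all genes. An unadjusted p under 0.05 with a positive estimate was found for 8 of the 9, against 9.43% of all genes. H2-DMb1 and H2-DMb2 were the 2 of 9 members whose palbociclib tumors all lay above the vehicle tumors, a share to be read against 12.9% of all genes tested. Combination against anti-PD-1 gave larger estimates for 7 of the 9 members, with equally wide intervals. They included 3.71 (SE 1.06) for H2-Aa, or 13.1-fold, 3.55 (SE 1.13) for H2-Eb1, 3.30 (SE 1.03) for Cd74 and 2.15 (SE 0.67) for H2-DMa. The estimate was smaller for H2-DMb2 (0.88 against 1.54) and H2-Oa (0.03 against 0.25). No member passed in limma (adjusted p from 0.327 to 0.986), against 0.00651% of all genes tested, and 7 of the 9 had an unadjusted p under 0.05 with a positive estimate, against 7.61%. In this comparison 6 of 9 members had arms that did not overlap, namely H2-Aa, H2-Ab1, H2-Eb1, Cd74, H2-DMa and H2-DMb1, against 11.4% of all genes.

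The combination against vehicle gave 2.78 (SE 1.13) for H2-Eb1, 2.51 (SE 1.06) for H2-Aa and 2.51 (SE 1.03) for Cd74, with no member passing in limma (adjusted p from 0.238 to 0.662) where 0.013% of all genes did and 8 of 9 with an unadjusted p under 0.05, against 8.64% of all genes higher at that level. Of the 9 tested members, none had combination tumors that all lay above the vehicle tumors, against 10.8% of all genes tested. Combination replicate 2 lay below vehicle replicate 1 in 9 of the 10 members, all but H2-Ob. H2-Ob, which was not tested, was read at 0.0802 to 0.107 FPKM with the combination. Its vehicle tumors, at 0.00905 to 0.0592 FPKM, all lay lower. For H2-Oa alone the combination estimate lay below 0, at -0.33 (SE 0.37).

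Anti-PD-1 alone, and anti-PD-1 added to palbociclib, gave no difference that could be told from the spread. Against vehicle, the 9 anti-PD-1 estimates had a median of -0.37 and ran from -1.20 to 0.25, with limma adjusted p from 0.762 to 0.939 and none passing, as in 0% of all genes. None had an unadjusted p under 0.05, where 3.28% of all genes were higher at that level. Of the 9, 8 were below 0, but without vehicle replicate 1 only 3 were, and the median became 0.24. For combination against palbociclib the median was -0.06 and the estimates ran from -0.58 to 0.14, with 95% intervals that reached from -2.54 to 2.46. None passed, against 0.00651% of all genes, and none had an unadjusted p under 0.05, where 1.06% of all genes were higher at that level. Without combination replicate 2 the median became 0.71, and without combination replicate 1 it became -0.58. The interaction, which asks whether palbociclib acted differently with anti-PD-1, had a median of 0.30, 95% intervals that reached from -2.80 to 4.62 and limma adjusted p of at least 0.945, with none passing, as in 0% of all genes, and none under an unadjusted 0.05, where 2.39% of all genes were higher. Without vehicle replicate 1 the interaction median became -0.31.

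The RFX and NF-Y subunits on which CIITA docks had small estimates, while some other class II transcription factors had larger ones. Of 12 listed factors none passed in the palbociclib effect, and the median was 0.06. An unadjusted p under 0.05 with a positive estimate was found for 4, against 14.1% of all genes tested. The 3 RFX subunits Rfx5, Rfxank and Rfxap, looked at after their values were seen, had estimates from -0.01 to 0.11, and the 3 NF-Y subunits Nfya, Nfyb and Nfyc from -0.03 to 0.31. Nfyc, at 0.31 (SE 0.09, limma adjusted p 0.118), was the 1 NF-Y subunit with an unadjusted p under 0.05. Irf4 and Spi1, factors of dendritic cells, macrophages and lymphocytes, had the largest estimates, 1.5 (SE 0.38) and 0.78 (SE 0.26), with limma adjusted p of 0.0911 and 0.146. Irf4 was read at 0.229 to 1.13 FPKM in tumors given palbociclib and at 0.0406 to 0.332 in the others.

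Ifng, the gene of interferon gamma, had a log2 palbociclib effect of 1.55 (SE 0.57, limma adjusted p 0.172), and was read at 0.145 to 1.91 FPKM with palbociclib and 0 to 0.390 without.

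Of 9 enzymes that process the invariant chain or antigen, none passed and the median was 0.30. An unadjusted p under 0.05 with a positive estimate was found for 5, against 14.1% of all genes tested. Ctss, the cathepsin that trims the invariant chain, was read at 64.5 to 300.1 FPKM with palbociclib and 39.3 to 149.9 without, an effect of 1.34 (SE 0.45, limma adjusted p 0.151). Ctsh had 1.06 (SE 0.31, limma adjusted p 0.116). Cd83, which keeps class II at the surface of dendritic cells by opposing its ubiquitination, had 1.78 (SE 0.46, limma adjusted p 0.0953), and was read at 2.47 to 8.60 FPKM with palbociclib and 0.554 to 6.99 without. It was the only gene of its list of 5 symbols that was matched in the files.

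Genes that read or accompany class II were mixed. Cd4, the coreceptor that binds class II, had 1.46 (SE 0.51, limma adjusted p 0.157), whereas Cxcr2, a receptor of the CD74 ligand MIF, had -1.41 (SE 0.56, limma adjusted p 0.196). None of the 6 genes of that list passed, and their median was 0.07. Of 6 costimulatory and checkpoint ligands none passed. An unadjusted p under 0.05 was found for 4, all with positive estimates, against 14.1% of all genes tested. Pdcd1lg2, which encodes PD-L2, had 1.90 (SE 0.60, limma adjusted p 0.131) and Cd86, which costimulates through CD28, 1.43 (SE 0.38, limma adjusted p 0.0999). Of the other class II locus genes, H2-Eb2 had 0.09 (SE 0.40, limma adjusted p 0.920).

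Markers of several leukocytes moved with class II across tumors. The 11 macrophage and monocyte markers summed to 132.1, 151.3 and 170.5 FPKM in vehicle replicate 3 and anti-PD-1 replicates 2 and 3, the 3 tumors with the lowest class II level. They summed to 833.5 to 922.0 in palbociclib replicates 2 and 3 and combination replicates 1 and 3, the 4 with the highest. By arm these sums ran from 132.1 to 703.0 with vehicle, 568.0 to 918.0 with palbociclib, 151.3 to 534.0 with anti-PD-1 and 405.2 to 922.0 with the combination. All 11 had a positive palbociclib estimate with a median of 1.21, and none passed. Of the 11, 8 had an unadjusted p under 0.05, against 14.1% of all genes tested with such a p and a positive estimate. The complement genes C1qa and C1qc had 1.76 (SE 0.53) and 1.58 (SE 0.50), with limma adjusted p of 0.123 and 0.133.

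Dendritic cell markers were read at far lower levels. The 10 of them summed to 2.98 to 10.2 FPKM with vehicle, 12.4 to 15.9 with palbociclib, 3.92 to 7.03 with anti-PD-1 and 4.86 to 11.1 with the combination. By this sum every palbociclib tumor lay above every combination tumor, unlike the macrophage sums. By the mean log2 level of the same 10 markers these arms overlapped. Combination replicate 1 (-0.25) lay above palbociclib replicates 1 (-0.61) and 3 (-0.30). Of these markers, 8 were tested and none passed, with a median of 0.72. Clec10a, a lectin of dendritic cells and macrophages, had 1.44 (SE 0.42, limma adjusted p 0.116), and Xcr1, a receptor of cross-presenting dendritic cells, 0.93 (SE 0.51, limma adjusted p 0.317). Xcr1 was at 0 in 3 tumors and Clec9a in 1.

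B cell markers summed to at most 4.23 FPKM in any tumor, and Ms4a1, the defining gene CD20, did not exceed 0.0294 FPKM and was at 0 in 6 tumors. Their sums were 1.29 to 4.23 with vehicle, 2.25 to 3.00 with palbociclib, 1.59 to 4.10 with anti-PD-1 and 2.43 to 3.41 with the combination. Of the 8, 4 were tested and none passed. Cd79b had 1.11 (SE 0.37, limma adjusted p 0.145) and Cd22 0.96 (SE 0.36, limma adjusted p 0.175). The other 2 tested lay near 0, Pax5 at 0.12 (SE 0.41) and Cd79a at -0.16 (SE 0.33). Of plasmacytoid dendritic cell markers, Siglech did not exceed 0.133 FPKM and Ccr9 0.075, while Bst2, also an interferon-induced gene of many cells, was at 257.7 to 613.2 and had 0.49 (SE 0.11, limma adjusted p 0.0807). Tcf4 had -0.19 (SE 0.13, limma adjusted p 0.407).

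T cell and pan-leukocyte genes also moved with class II. All 6 T cell markers had a positive estimate and an unadjusted p under 0.05, against 14.1% of all genes tested. None passed, and the median was 1.43. Cd3g and Cd8b1 had 1.79 each (SE 0.45 and 0.51), with limma adjusted p of 0.0885 and 0.114. T cell markers summed to 0.893 to 5.54 FPKM with vehicle, 5.90 to 12.9 with palbociclib, 1.36 to 3.61 with anti-PD-1 and 4.08 to 12.6 with the combination. Ptprc, the pan-leukocyte gene CD45, was read at 1.48 to 2.11 FPKM with vehicle, 2.25 to 3.36 with palbociclib, 1.19 to 1.44 with anti-PD-1 and 0.841 to 3.21 with the combination. Of 5 pan-leukocyte genes none passed. Cd52 had 1.34 (SE 0.32, limma adjusted p 0.0846) and Laptm5 0.75 (SE 0.28, limma adjusted p 0.180).

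H2-Ab1 differed between tumors by more than Csf1r, Ptprc and C1qa did. The ratio of H2-Ab1 to Csf1r FPKM ran from 0.629 to 5.68, with medians of 0.963 for vehicle, 2.69 for palbociclib, 0.685 for anti-PD-1 and 4.61 for the combination. The ratio of H2-Ab1 to Ptprc ran from 1.96 to 43.7, with medians of 4.38, 23.7, 3.00 and 34.9 in the same order. The ratio of H2-Ab1 to C1qa ran from 0.0532 to 0.464, with medians of 0.147, 0.272, 0.102 and 0.382 in that order. For C1qa, palbociclib replicate 1 (0.171) lay below vehicle replicate 1 (0.220), and combination replicate 2 (0.0992) below anti-PD-1 replicate 3 (0.132). With log2 Ptprc as a covariate the palbociclib estimate became 1.88 for H2-Aa, 1.93 for H2-Eb1, 1.72 for Cd74 and 1.11 for Ciita, and their limma adjusted p lay between 0.381 and 0.448. Whether leukocyte number or class II RNA per cell carried the difference was not tested.

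**Figure D4:**
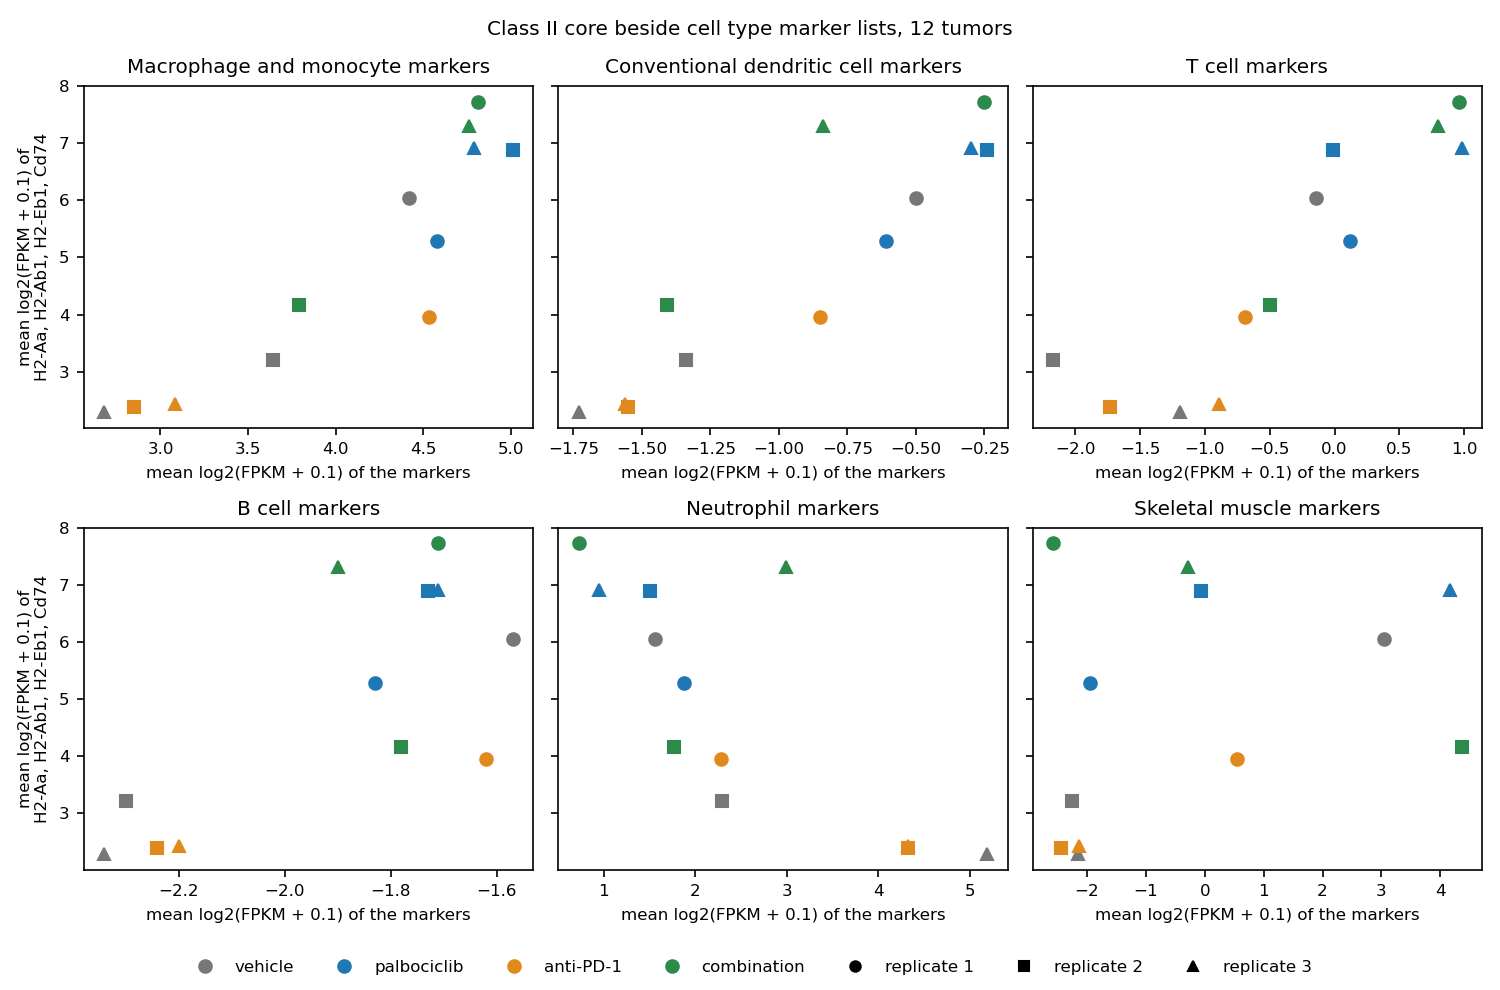
Mean log2(FPKM + 0.1) of H2-Aa, H2-Ab1, H2-Eb1 and Cd74 (vertical) against that of 6 marker lists (horizontal) in 12 tumors, coloured by arm and shaped by replicate. The 3 lowest class II tumors have the 3 lowest macrophage means and the 3 highest neutrophil means, and the tumors high in skeletal muscle genes lie at both high and intermediate class II levels.

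Neutrophil genes ran the opposite way. The 5 of them, Cxcr2 included, summed to 538.0 FPKM in vehicle replicate 3 and to 275.9 and 244.2 in anti-PD-1 replicates 2 and 3, against at most 88.5 in the other tumors. All 5 had a negative palbociclib estimate, 4 had an unadjusted p under 0.05, none passed, and the median was -1.90. The share of all genes lower at that level is not given here, so the count of 4 has no background beside it. S100a9 and S100a8, calcium-binding proteins of neutrophils, had -2.27 (SE 0.74) and -1.96 (SE 0.82), with limma adjusted p of 0.143 and 0.215. No gene of the endothelial, epithelial, skeletal muscle, adipose and skin lists passed. The estimates farthest from 0 in each list were -0.73 (SE 0.20) for Cdh5 and -0.62 (SE 0.19) for Pecam1, 0.68 (SE 0.83) for Krt19 and 0.40 (SE 0.73) for Epcam, 2.10 (SE 1.89) for Acta1 and 1.80 (SE 1.45) for Tnnt3. The other 2 epithelial genes went the other way, Krt8 at -0.40 (SE 0.23) and Krt18 at -0.22 (SE 0.90). Of the 5 endothelial genes, 2 had positive estimates. Among adipose and skin genes the estimates farthest from 0 were 6.96 (SE 1.62) for Cfd, 4.47 (SE 1.44) for Adipoq, 2.75 (SE 1.39) for Krt14 and 2.33 (SE 1.29) for Krt5. Skin genes were high in the 1 tumor named above. The adipose sum, highest in the 2 tumors named above, was also 15.4 and 34.9 in palbociclib replicates 2 and 3. It was 15.8 in combination replicate 2 and 1.29 in combination replicate 3. It was at most 4.40 with vehicle and 4.75 with anti-PD-1.

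The genes whose pattern over the 12 tumors was most like the 4 core genes were then listed, as a description. Among the 11181 other genes whose FPKM averaged 1 or more, the highest Pearson r with the mean log2 level of H2-Aa, H2-Ab1, H2-Eb1 and Cd74 was 0.986 for Serpina3g. Fcgr4, Cd52, Tmsb4x, Aif1, Gbp8, Serpina3f, Hvcn1, Rac2 and 2210016F16Rik followed, down to an r of 0.967. Like patterns were common, and Spi1, with an r of 0.901, ranked 173. The tumors differed in the tissue genes named above, whose part in these patterns was not tested. After the arm means were subtracted, the r of these 10 genes lay between 0.926 (Rac2) and 0.988 (Gbp8), so the likeness was present among tumors of 1 arm. For the members outside the core, r with the core was 0.987 for H2-DMa, 0.985 for Ciita, 0.920 for H2-DMb1, 0.906 for H2-DMb2, 0.727 for H2-Ob and 0.538 for H2-Oa.

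None of the 10 most alike genes passed in the palbociclib effect. Serpina3g had 2.47 (SE 0.59, limma adjusted p 0.0846), and was read at 0.843 to 20.4 FPKM. Fcgr4, an activating Fc receptor of myeloid cells, had 2.01 (SE 0.45, limma adjusted p 0.0804), Gbp8, a guanylate-binding protein, 2.13 (SE 0.47, limma adjusted p 0.0747) and Serpina3f 2.54 (SE 0.54, limma adjusted p 0.0736). Hvcn1 had the highest adjusted p of the 10, 0.139, with an estimate of 0.91 (SE 0.29).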

How the data were processed

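Bulk tumor RNA was sequenced on an Illumina Novaseq. The authors deposited 1 table of FPKM values per tumor, aligned with HISAT2 to GRCm38/mm10 per the submitters' processing notes; the counting tool, annotation and strand setting are not given in the sources used here. Where a symbol was listed more than once (67 of 34745 entries were repeats), only the entry of greatest average FPKM was used. Fragments per tumor were estimated from the FPKM step of 1 fragment, with GENCODE M21 exon lengths, and are approximate. Arms came from the labels.

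FPKM were tested as log2(FPKM + 0.1), so changes of low genes are understated, with limma 3.58.1 (trend, Benjamini-Hochberg, R 4.3.3) over all 12 tumors in 1 fit, and tested on simulated data first. The exact permutation test went through all relabelings with numpy 2.4.6. A comparison of 3 against 3 tumors cannot reach an exact p below 0.1. The members, gene lists and motifs were chosen with earlier results of these data known. All members were named, with the 2 genes of each other list that had the largest absolute palbociclib effect, any gene past the threshold, and the 10 genes most alike; some listed genes are not reported here. Alternatives were other pseudocounts, filters and scalings, eBayes without trend, a replicate block, Ptprc as covariate, fits of only the arms compared, and leaving out each tumor.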

Additional observations from a re-analysis of the deposited data

How the results depend on the processing

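The number of members past the threshold in the palbociclib effect was 0 with all 12 tumors and ran from 0 to 8 when each tumor was left out. It was 0 under the other pseudocounts, filters and scalings, without the trend, and with Ptprc as covariate, and no member passed in the other 6 comparisons under any alternative. The number of all genes called moved from 48 to 45 with a pseudocount of 1, 70 with a filter at mean FPKM 1, 11 without a filter, 62 on TPM, 0 without the trend, 0 with Ptprc, and between 0 and 758 when a tumor was left out. With the replicate block 0 members and 129 genes were called. Same-numbered tumors of different arms correlated from -0.213 to 0.453, and other pairs from -0.353 to 0.309, so the numbers were not taken as pairing the tumors. The exact test, also run without each tumor after the data were seen, kept 9 of 10 members under 0.05 with all 12 tumors, with a pseudocount of 1, on TPM and without each tumor, where 8.54% to 16.8% of all genes tested had such a p and a positive estimate.

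In the comparisons in which palbociclib was the difference, signs of members turned for H2-Oa. H2-Oa gave -0.02 for palbociclib versus vehicle, -0.14 for combination versus anti-PD-1 and -0.08 for the palbociclib effect under quantile normalization, and -0.14 and -0.03 for the latter pair with Ptprc. Without 1 tumor H2-Oa ran from 0.00 to 0.47 for palbociclib versus vehicle and from -0.22 to 0.27 for combination versus anti-PD-1. In the palbociclib effect H2-Eb2 was -0.06 under quantile normalization, -0.29 with Ptprc and -0.15 to 0.33 without 1 tumor. Krt19 was -0.16 with Ptprc and -0.23 to 1.14 without 1 tumor. Epcam was -0.03 with a pseudocount of 0.01, -0.13 with Ptprc and -0.19 to 0.78 without 1 tumor.

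Signs of most members turned in the comparisons that concern anti-PD-1, none of which were called. For anti-PD-1 versus vehicle, with Ptprc, H2-Eb1 was 0.19, Cd74 0.07, Ciita 0.36, H2-DMa 0.13 and H2-DMb1 0.01. Without 1 tumor H2-Ab1 ran from -1.64 to 0.15, H2-Eb1 from -1.64 to 0.39, Cd74 from -1.52 to 0.29, Ciita from -0.74 to 0.50, H2-DMa from -0.92 to 0.24 and H2-DMb2 from -0.19 to 0.71. For combination versus palbociclib, with Ptprc, H2-Ab1 was 0.86, H2-Eb1 0.89, Ciita 0.59 and H2-DMa 0.42. Ciita was 0.03 with a pseudocount of 1 and 0.06 under quantile normalization, and H2-DMb1 was -0.02 on TPM. Without 1 tumor H2-Aa ran from -0.57 to 1.25, H2-Ab1 from -0.69 to 1.07, H2-Eb1 from -0.81 to 1.16, Cd74 from -0.47 to 1.15, Ciita from -0.60 to 0.71, H2-DMa from -0.52 to 0.53 and H2-DMb1 from -0.21 to 0.30. For the interaction, without 1 tumor, H2-Ab1 ran from -0.17 to 1.99, H2-Eb1 from -0.45 to 1.94, Cd74 from -0.19 to 1.94, Ciita from -0.58 to 1.02, H2-DMa from -0.31 to 0.91, H2-DMb1 from 0.00 to 0.51 and H2-Oa from -0.46 to 0.03. The causes were not tested. Depth limits H2-Oa, H2-Ob, H2-DMb2 and H2-Eb2, each at no more than 137 estimated fragments over all tumors.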
